A study of Mus musculus with 6 samples.

Results

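The 48 genes described here encode proteins of synaptic vesicles and of the machinery that docks, primes and fuses them. They were taken by symbol from a count table of 53801 genes in the adult mouse brain, and each symbol matched a single row. The list was set by gene name, with earlier results of these data known. RNA-seq compared one frozen brain hemisphere from each of 3 Bahd1-WT mice (Bahd1+/+) and 3 Bahd1-KO mice (Bahd1-/-). All 6 mice were C57BL/6, male and about 70 weeks old. Bahd1 encodes a factor that compacts chromatin, and the KO mice, born to heterozygous Bahd1-Het1 parents, lack it in every cell throughout life. A hemisphere mixes all brain regions and cell types, and same-numbered replicates of the 2 genotypes are different animals.

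A synaptic vesicle is filled with transmitter, carried to the active zone by Rab3 and its effectors, and primed when syntaxin, SNAP25 and synaptobrevin begin to zip into the SNARE complex. Complexins and Munc13 proteins hold and ready this complex, and synaptotagmins trigger fusion when calcium enters. Afterwards NSF and its SNAP adaptors take the SNARE complex apart for reuse.

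All 48 genes were well measured, with at least 168 counts in every library. Library totals ranged from 42297150 to 93557948 counts. The 48 genes took 1.722%, 1.802% and 1.875% of them in Bahd1-WT and 1.943%, 1.894% and 1.992% in Bahd1-KO. Levels are CPM, a gene's reads scaled to a common library size with TMM factors. Log2 fold changes compare Bahd1-KO with Bahd1-WT and are given with their standard error (SE). The summed CPM of the 48 genes overlapped between genotypes, at 17480 to 19070 in Bahd1-WT and 18610 to 19260 in Bahd1-KO. The targeted gene, Bahd1, gave 1383, 844 and 1099 reads in the 3 wild-type libraries against 0, 14 and 1 in the knockouts, so that no library went against its label. The summed level of 6 neuronal markers (Rbfox3, Tubb3, Map2, Nefl, Nefm and Eno2) overlapped between genotypes, at 3484 to 3620 CPM in Bahd1-WT and 3518 to 3623 CPM in Bahd1-KO. Taken singly, 4 of the 6 were higher, 4 had an unadjusted p under 0.05 in edgeR, 3 were separated upward and 1 downward, and their median log2 fold change was 0.44. In a bulk hemisphere, fewer cells of a type and less RNA per cell cannot be told apart.

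Among the release genes, 29 were higher and 19 lower in Bahd1-KO. Their median log2 fold change was 0.26, against -0.06 over the 23975 genes tested and 0.02 over protein-coding genes with a mean of at least 1 CPM. The higher genes included the plasma membrane SNARE Stx1a, the small GTPase Rab3a, the calcium-binding Syt3 and the fusion clamp Cplx1. The lower genes included the fusion calcium sensor Syt1, the GTPase Rab3c and the active zone scaffold Pclo. The difference reached 2-fold in 3 genes, Stx1a, Syt3 and Rab3a.

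None of the 48 genes met the call for a differentially expressed gene in edgeR (adjusted p under 0.05 and at least 2-fold), a call that 2 of the 23975 genes tested met (0.00834%). At an unadjusted p under 0.05, edgeR gave 18 of the 48, where 31.8% of all genes tested passed. Of these, 17 were higher, against a background of 19.9%, and Pclo alone was lower, against 12%. Protein-coding genes with a mean of at least 1 CPM are a set nearer to the members. Of these 13621 genes, 3895 were higher and 1793 lower at the same limit. At an adjusted p under 0.1 edgeR gave 12 higher genes, against 14.7% of all genes, and 0 lower ones, against 4.77%. DESeq2 with its normal prior gave 11 of those 12, all but Bsn, at an adjusted p under 0.05, against 14.3% of all genes, and 0 lower ones, against 2.85%. With the 2-fold limit added, DESeq2 called Stx1a and Syt3, where it called 10.5% of all genes. Of the same 13621 protein-coding genes, 3633 had an adjusted p under 0.1 in edgeR, in either direction. DESeq2 with the prior gave 3476 of the 13621 at an adjusted p under 0.05.

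The edgeR calls depended on 1 library, the filter and the scaling. Leaving out Bahd1-KO replicate 1 gave 8 called members (Syt3, Doc2a, Syngr1, Stx1a, Cplx1, Cplx3, Rab3a and Rims4), with 16.8% of all genes called. Without the filter on low counts edgeR called Syt3, Stx1a and Rab3a, with 8.45% of all genes called, and scaling to total counts gave the same 3 genes, with 8.37% called. Leaving out Bahd1-KO replicate 2 gave 16 of the 48 at an unadjusted p under 0.05, 15 of them higher, where 24.8% of all genes passed. The split of directions moved as well, since 62.4% of all genes at an unadjusted p under 0.05 were higher with TMM, 75.0% after scaling to total counts and 47.9% after upper-quartile scaling. Upper-quartile factors put the median over all genes at -0.20 and the members' median at 0.11.

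The CPM ranges of the genotypes did not overlap for 23 genes. In 18 of them every Bahd1-KO mouse was above every Bahd1-WT mouse, against 20.6% of all genes tested. In Syt1, Stxbp5, Rab3c, Rims2 and Pclo every Bahd1-KO mouse was below, against 19.3%. Of the 13621 protein-coding genes with a mean of at least 1 CPM, 4033 were higher and 2981 lower without overlap. Bahd1-KO replicate 2 was the most extreme library in most of these genes, the highest in 17 of the 18 and the lowest in 5 of 5. Over all 48 genes it was the highest or lowest of the 6 libraries in 36.

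**Figure D1:**
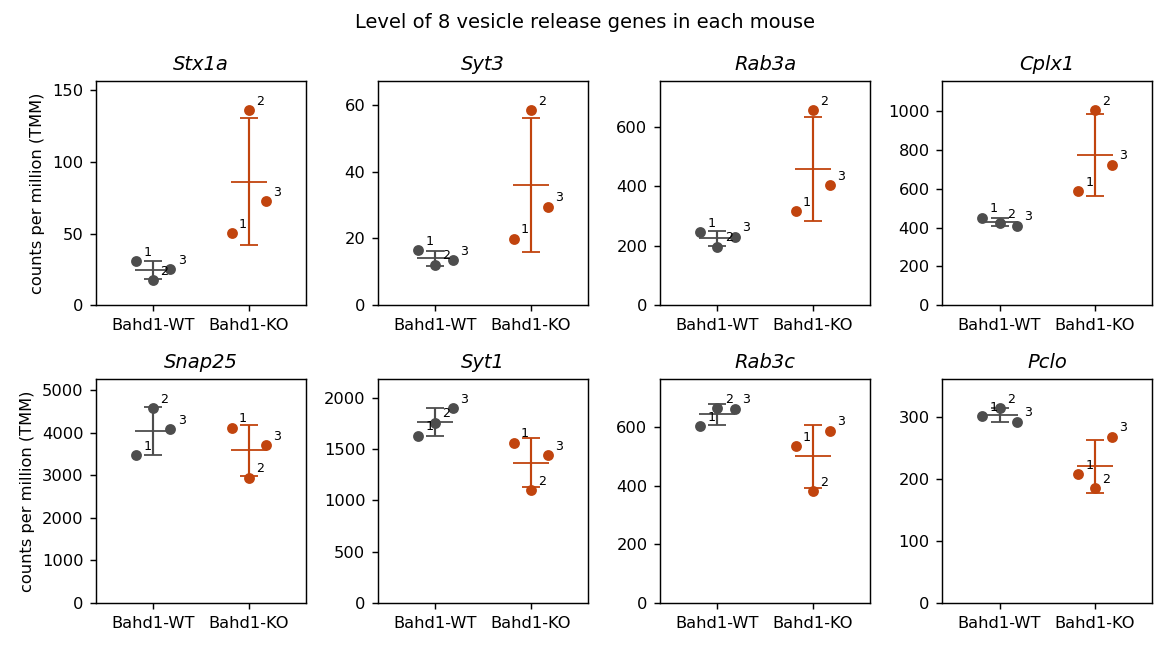
Level of 8 release genes in CPM (vertical axes, from 0) in Bahd1-WT and Bahd1-KO mice. Points are single mice numbered by replicate, horizontal marks are means and error bars are SD (n = 3). The 4 genes of the upper row are higher in all 3 Bahd1-KO mice, with replicate 2 highest, while Snap25 overlaps and Syt1, Rab3c and Pclo are lower.

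The SNARE proteins and the pair of activities that recycle them did not move as a unit. Snap25, the target membrane SNARE that pairs with syntaxin (chromosome 2, 136713453 to 136782428, GRCm38), was the most abundant gene of the 48 per length, at 596 CPM per kilobase of exon in Bahd1-WT. It measured 3469, 4582 and 4081 CPM in Bahd1-WT and 4121, 2944 and 3701 CPM in Bahd1-KO, so the genotypes overlapped (log2 fold change -0.17 ± 0.19 SE). Vamp2, the synaptobrevin of most central synapses, spanned only 1325 to 1459 CPM over the 6 libraries, with a log2 fold change of -0.02 ± 0.14. Vamp1, its relative prominent in motor and hindbrain circuits, measured 0.30 ± 0.16 with an adjusted p of 0.22 in edgeR.

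Stx1a, the syntaxin that anchors the complex in the plasma membrane, had the largest difference of the 48 genes. It measured 30.7, 17.6 and 25.3 CPM in Bahd1-WT replicates 1, 2 and 3 and 50.2, 136 and 72.6 CPM in Bahd1-KO replicates 1, 2 and 3. Every Bahd1-KO mouse was above every Bahd1-WT mouse, and the Bahd1-KO mice differed from one another by more than the Bahd1-WT mice did. The difference was 3.52-fold (log2 1.81 ± 0.37 SE, adjusted p = 0.063 in edgeR and 0.000101 in DESeq2 with the prior). Without Bahd1-KO replicate 2 the log2 fold change was 1.33. Per length its level in Bahd1-KO, 32.4 CPM per kilobase of exon, stayed far below those of Snap25 and Vamp2, 528 and 363 CPM per kilobase in the same mice.

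The bases before the RefSeq start of Stx1a are shown because it differed most. The stretch is chr5:135023232-135023481 (GRCm38.p6, plus strand, 250 bases), just before the first exon, with 62% GC. Capitals mark the GC box GGGCGG, the motif bound by Sp1-type factors, which occurs 1 time here.
Stx1a: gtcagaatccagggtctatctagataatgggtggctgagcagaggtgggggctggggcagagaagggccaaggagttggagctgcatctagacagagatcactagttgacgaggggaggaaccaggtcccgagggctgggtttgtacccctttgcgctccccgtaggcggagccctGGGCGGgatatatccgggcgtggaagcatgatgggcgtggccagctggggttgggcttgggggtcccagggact

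Among the recycling factors, Nsf, the ATPase that unwinds spent SNARE complexes, measured 780, 788 and 875 CPM in Bahd1-WT and 827, 925 and 962 CPM in Bahd1-KO (log2 fold change 0.15 ± 0.15). Its 2 adaptors lay on opposite sides of 0, and they changed sides with the GC and length offset (Napa -0.090, Napb 0.11). Napa (alpha-SNAP) measured 126, 109 and 127 CPM in Bahd1-WT and 155, 272 and 171 CPM in Bahd1-KO, with no overlap (1.65-fold, log2 0.72 ± 0.22, adjusted p = 0.077 in edgeR). Napb (beta-SNAP), the more abundant form, measured 755, 872 and 856 CPM in Bahd1-WT and 778, 531 and 731 CPM in Bahd1-KO, where the genotypes overlapped (log2 -0.28 ± 0.18).

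Of the SNARE regulators, 2 complexins were higher and the tomosyn gene lower. With the GC and length offset Cplx1 was at -0.16, Cplx3 at 0.38 and the tomosyn gene Stxbp5 at 0.078. Cplx1, a complexin that clamps the assembled complex until calcium arrives, measured 452, 423 and 410 CPM in Bahd1-WT and 590, 1006 and 726 CPM in Bahd1-KO. The lowest Bahd1-KO mouse was well above the highest Bahd1-WT mouse, a 1.81-fold difference (log2 0.85 ± 0.21, adjusted p = 0.063 in edgeR). Cplx3, the complexin best known from ribbon synapses of the retina, was scarce at 6.83, 6.20 and 7.65 CPM in Bahd1-WT and higher at 10.5, 16.4 and 11.5 CPM in Bahd1-KO (log2 0.89 ± 0.23, adjusted p = 0.064 in edgeR). The abundant forebrain form Cplx2 overlapped between genotypes, with a log2 fold change of 0.26 ± 0.17. Stxbp5 (tomosyn), which competes with synaptobrevin for the SNARE complex, measured 139, 142 and 146 CPM in Bahd1-WT and 126, 93.8 and 123 CPM in Bahd1-KO. Its genotypes did not overlap, but the adjusted p was 0.21 in edgeR (log2 -0.32 ± 0.16).

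The Rab3 GTPases bring vesicles to the active zone. Rab3a (chromosome 8, 70754679 to 70758677) measured 246, 197 and 231 CPM in Bahd1-WT and 317, 656 and 403 CPM in Bahd1-KO. All Bahd1-KO mice were above all Bahd1-WT mice, a 2.04-fold difference (log2 1.03 ± 0.26, adjusted p = 0.063 in edgeR). Rab3c measured 603, 665 and 663 CPM in Bahd1-WT and 535, 381 and 588 CPM in Bahd1-KO, lower without overlap (log2 -0.36 ± 0.19, adjusted p = 0.21 in edgeR). Rab3b, a less abundant form, was above the Bahd1-WT mice in all 3 Bahd1-KO mice, by a narrow margin in replicate 3, which had 41.6 CPM against a Bahd1-WT maximum of 40.9 CPM (log2 0.52 ± 0.21).

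Rab3a and Rab3c encode proteins with 83.6% identical residues over 219 aligned positions. A stretch of 30 codons within a single exon of each gene, chosen as the one with the most identical residues, shows how far their RNAs differ where the proteins do not. The Rab3a stretch is chr8:70756447-70756536 (plus strand, exon 2 of 4) and the Rab3c stretch chr13:110181008-110181097 (minus strand, exon 3 of 5), both GRCm38, coding and read from GENCODE M21 transcripts. Capitals mark the bases that differ between the genes.
Rab3a: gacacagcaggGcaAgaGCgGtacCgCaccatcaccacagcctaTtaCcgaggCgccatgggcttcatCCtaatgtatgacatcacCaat
Rab3c: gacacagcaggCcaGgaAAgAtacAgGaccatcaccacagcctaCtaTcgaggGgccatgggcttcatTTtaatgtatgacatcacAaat
All 30 residues are identical, while 13 of the 90 bases differ, 10 of them at the third codon position. Rab3a has G or C against A or T in Rab3c at 8 of the 13, and the reverse holds at 2. Over the whole coding sequence the third codon position held 72.4% GC in Rab3a and 59.2% in Rab3c.

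The synaptotagmins and their C2 domain relatives held 15 of the 48 genes, 10 higher and 5 lower, and their median difference was 0.37 on the log2 scale. Syt1, the calcium sensor of fast synchronous release, measured 1631, 1760 and 1903 CPM in Bahd1-WT and 1562, 1100 and 1444 CPM in Bahd1-KO. These ranges came close without overlapping, and the log2 fold change was -0.37 ± 0.18 (adjusted p = 0.19 in edgeR). Syt2, the fast sensor of hindbrain and spinal synapses, overlapped at 141 to 184 CPM against 157 to 268 CPM.

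Syt3, a high-affinity synaptotagmin, had the second largest difference of the 48 genes. It measured 16.5, 12.2 and 13.5 CPM in Bahd1-WT and 19.9, 58.4 and 29.5 CPM in Bahd1-KO, so the range within Bahd1-KO was wider than the gap between genotypes. The log2 fold change was 1.35 ± 0.36 (adjusted p = 0.065 in edgeR), and 0.82 without Bahd1-KO replicate 2. Syt7, the sensor of asynchronous release and facilitation, measured 0.37 ± 0.17, with Bahd1-KO replicate 1 inside the Bahd1-WT range.

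Doc2a and Doc2b, soluble calcium sensors linked to spontaneous release, were each higher in all 3 Bahd1-KO mice. Doc2a measured 9.32, 8.0 and 11.0 CPM in Bahd1-WT and 12.7, 24.2 and 13.9 CPM in Bahd1-KO (log2 0.84 ± 0.28). Doc2b measured 45.9, 38.1 and 42.5 CPM in Bahd1-WT and 48.9, 68.9 and 59.7 CPM in Bahd1-KO (log2 0.49 ± 0.18). Both kept the genotypes apart, but Bahd1-KO replicate 1 lay within a few CPM of the highest Bahd1-WT mouse. With the GC and length offset both genes were below 0, Doc2a at -0.67 and Doc2b at -0.23.

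Of the other synaptotagmins, Syt12 (0.63 ± 0.19 on the log2 scale) and Syt13 (0.37 ± 0.15), neither of which binds calcium, were higher without overlap. In Syt4, Syt5, Syt6, Syt9, Syt10, Syt11 and Syt17 the genotypes overlapped, with log2 fold changes from -0.41 in Syt4 to 0.43 in Syt5.

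The synapsins, which tether vesicles in the reserve pool, showed no separation of the genotypes. Syn1 measured 600, 700 and 680 CPM in Bahd1-WT and 601, 689 and 530 CPM in Bahd1-KO (log2 -0.12 ± 0.16). Syn2 had a log2 fold change of 0.01 ± 0.15. Syn3, much the least abundant at 3.29 to 5.39 CPM in Bahd1-WT, measured 3.86, 8.62 and 8.78 CPM in Bahd1-KO, so that replicate 1 stayed among the Bahd1-WT mice (log2 0.63 ± 0.35).

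The proteins embedded in the vesicle membrane gave 4 higher and 3 lower genes, with a median of 0.26. Syngr1 (synaptogyrin), a protein that spans the vesicle membrane, had the largest difference among them without the GC and length offset, and was at -0.087 with it. It measured 226, 166 and 200.0 CPM in Bahd1-WT and 280, 476 and 368 CPM in Bahd1-KO, a 1.90-fold difference without overlap (log2 0.92 ± 0.22, adjusted p = 0.063 in edgeR). Syp (synaptophysin), the most widely used marker of synapses, measured 1079, 1015 and 1149 CPM in Bahd1-WT and 1343, 1370 and 1160 CPM in Bahd1-KO. The lowest Bahd1-KO mouse exceeded the highest Bahd1-WT mouse only slightly, and the adjusted p was 0.26 in edgeR (log2 0.26 ± 0.15).

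Sv2a, the vesicle glycoprotein bound by levetiracetam, was 1.34-fold higher and separated, from 265 to 332 CPM against 348 to 431 CPM (log2 0.42 ± 0.16). Its relative Sv2b measured 514, 659 and 681 CPM in Bahd1-WT and 562, 367 and 477 CPM in Bahd1-KO, where replicate 1 lay inside the Bahd1-WT range (log2 -0.40 ± 0.20). Sv2c, Synpr and Syngr3 overlapped between genotypes, at -0.07, -0.25 and 0.38 on the log2 scale.

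The active zone proteins, which organise the release site, gave 4 higher and 5 lower genes, with a median of -0.08. Bsn and Pclo, the giant scaffolds Bassoon and Piccolo that overlap in function, lay on opposite sides. Bsn measured 152, 134 and 143 CPM in Bahd1-WT and 156, 282 and 228 CPM in Bahd1-KO (log2 0.63 ± 0.22, adjusted p = 0.097 in edgeR). Pclo (chromosome 5, 14514918 to 14863459) measured 300.2, 314 and 292 CPM in Bahd1-WT and 208, 184 and 267 CPM in Bahd1-KO, a 1.37-fold lower level (log2 -0.46 ± 0.17, adjusted p = 0.11 in edgeR). The genotypes did not overlap in either gene, though Bahd1-KO replicate 1 was close to Bahd1-WT for Bsn and Bahd1-KO replicate 3 for Pclo. With the GC and length offset both genes were below 0, Bsn at -0.54 and Pclo at -0.18.

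The RIM family are scaffolds that link Rab3, Munc13 and calcium channels. The short forms Rims3 and Rims4 were higher, Rims3 at 149, 112 and 135 CPM against 167, 260 and 222 CPM and Rims4 at 51.6, 40.3 and 44.8 CPM against 62.6, 102 and 87.9 CPM. Their log2 fold changes were 0.72 ± 0.20 and 0.89 ± 0.21, with adjusted p of 0.066 and 0.063 in edgeR. Of the long forms, Rims2 was lower without overlap (log2 -0.38 ± 0.17, adjusted p = 0.16 in edgeR) and Rims1 overlapped (-0.12 ± 0.15). With the GC and length offset, Rims3, Rims4 and Rims1 were at 0.026, 0.0040 and 0.025 and Rims2 at -0.20.

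The Munc13 genes encode the priming factors that open syntaxin. Unc13a, the main isoform of excitatory synapses, measured 120.0, 109 and 119 CPM in Bahd1-WT and 127, 220.0 and 174 CPM in Bahd1-KO (log2 0.58 ± 0.21, adjusted p = 0.10 in edgeR). Every Bahd1-KO mouse was above the Bahd1-WT mice, replicate 1 by a small margin. With the GC and length offset Unc13a was at -0.30. Unc13c, the cerebellar form, had a log2 fold change of -0.37 ± 0.19 and Unc13b one of -0.08 ± 0.19, both with overlapping genotypes.

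**Figure D2:**
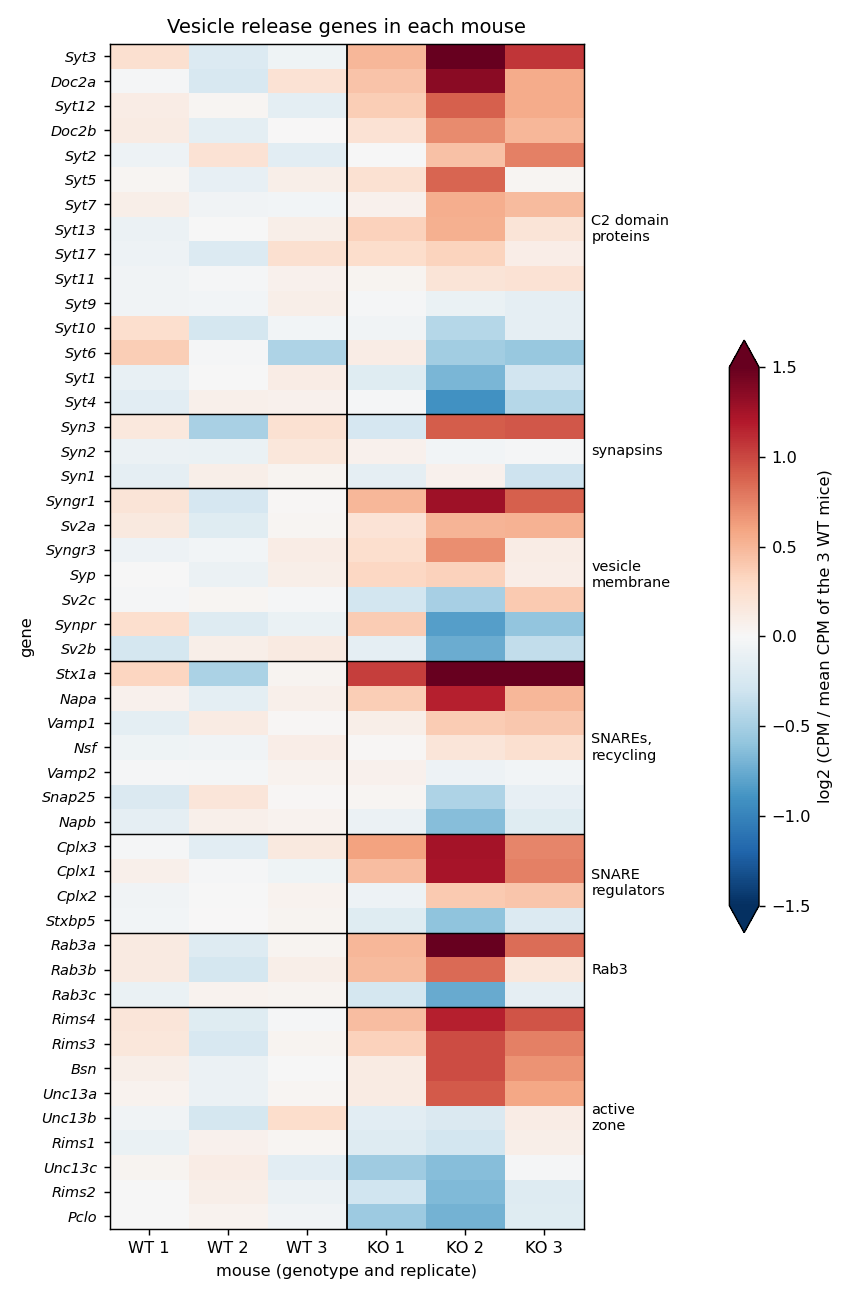
Colour gives the log2 ratio of each gene's CPM to the mean of the 3 Bahd1-WT mice, for 48 release genes (rows, grouped by role) in the 6 mice (columns). The scale ends at 1.5 in each direction, and Stx1a in Bahd1-KO replicates 2 and 3 and Syt3 and Rab3a in replicate 2 lie beyond it. Bahd1-KO replicate 2 has the deepest colours in both directions.

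The direction of the difference followed the GC content of the transcripts, which ran from 40.7% in Syt4 to 61.8% in Doc2a. Across the 48 genes the log2 fold change and GC content had a Pearson r of 0.77 and a Spearman rho of 0.79, a description over genes that share the same 6 libraries. Among the 16 genes richest in GC (55.4% or more) 14 were higher, with a median of 0.68, and among the middle 16 also 14 were higher, with a median of 0.33. Among the 16 poorest in GC (48.6% or less) 1 was higher, with a median of -0.30. All 5 genes that were lower without overlap belonged to the GC-poor 16, and 11 of the 18 that were higher without overlap belonged to the GC-rich 16.

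Single libraries differed in this relation. With each library set against the mean log2 level of Bahd1-WT, or a Bahd1-WT library against the other 2, the Spearman rho between a gene's log2 ratio and its GC content over the 48 genes was 0.83 in Bahd1-KO replicate 2, 0.64 in replicate 1 and 0.65 in replicate 3. In Bahd1-WT it was 0.45 in replicate 1, -0.44 in replicate 2 and -0.03 in replicate 3. Over the 14693 expressed genes with a known GC content it was 0.68, 0.89 and 0.83 in Bahd1-KO replicates 1, 2 and 3 and 0.55, -0.60 and 0.09 in Bahd1-WT replicates 1, 2 and 3. The relation thus ran through the expressed genes at large, and Bahd1-WT libraries also differed from one another in it. Without Bahd1-KO replicate 2 the members' Pearson r was 0.69 and Spearman rho 0.71.

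An edgeR fit used an offset that removed each library's trend of CPM on GC content and exon length. The trend was fitted over the 13261 genes above 1 on the log2 CPM scale, and the members' median moved to -0.08. In this fit 23 genes were higher and 25 lower, and 26 changed sign, 16 from higher to lower and 10 from lower to higher. At an unadjusted p under 0.05 it gave 7 higher genes (Syn3, Snap25, Vamp1, Stx1a, Nsf, Cplx3 and Rab3b), against 9.63% of all genes, and 8 lower genes (Syt5, Syt7, Doc2a, Syn1, Syngr3, Vamp2, Unc13a and Bsn), against 11% of all genes. Only Stx1a, Cplx3 and Rab3b passed this limit in both fits with the same sign, while Doc2a, Unc13a and Bsn passed it in both with opposite signs. The members' log2 fold changes then ran against GC content, with a Pearson r of -0.51 and a Spearman rho of -0.55 over the 48 genes, so the offset did not leave the list free of a GC trend.

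Stx1a kept its direction and its separation under the offset. Its offset-scaled level was 38.9, 30.7 and 37.8 CPM in Bahd1-WT and 49.9, 55.5 and 54.4 CPM in Bahd1-KO, so the 3 Bahd1-KO mice lay much closer together than before. The log2 fold change was 0.57 ± 0.11 (adjusted p = 0.076 in edgeR). Rab3a and Syt3, the other 2 genes past 2-fold, no longer differed by much, with 0.09 ± 0.09 and -0.11 ± 0.10. All 3 Rab3 genes were then above 0, Rab3b at 0.48 and Rab3c at 0.17.

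The abundant genes moved too. Snap25 measured 2948, 3590 and 3464 CPM in Bahd1-WT and 4019, 4666 and 4238 CPM in Bahd1-KO with the offset, a separation that the unadjusted scale did not show (log2 0.37 ± 0.11, adjusted p = 0.11 in edgeR). Syn1 and Vamp2, close to level between genotypes on the first scale, were at -1.17 ± 0.24 (adjusted p = 0.076 in edgeR) and -0.91 ± 0.25 (adjusted p = 0.096 in edgeR). The separation of the genotypes in Syn1, Vamp2 and Snap25 was present with the offset and absent without it.

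**Figure D3:**
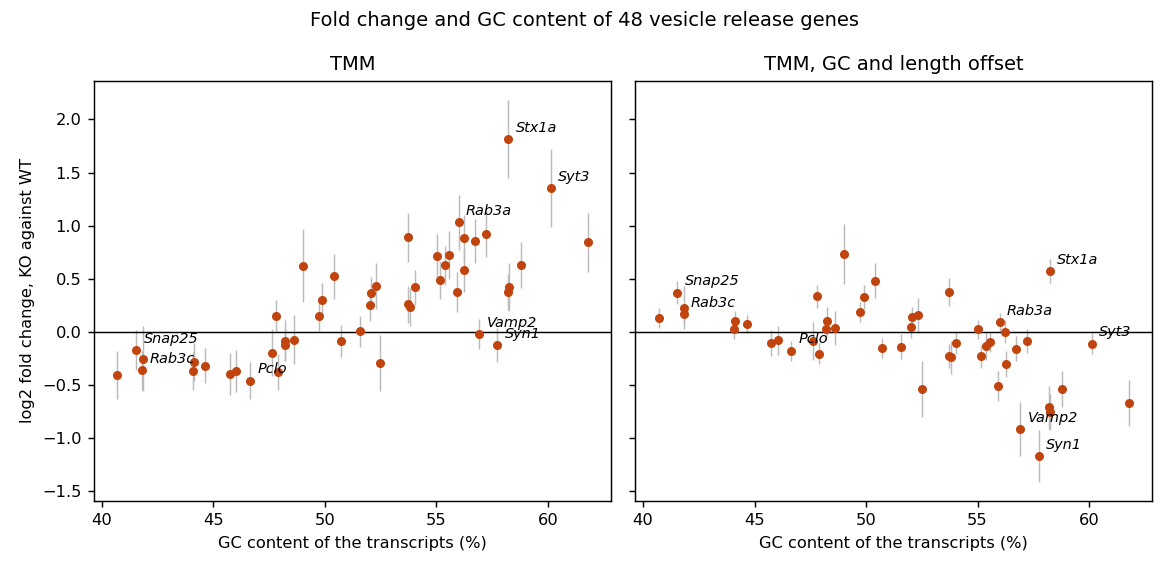
Log2 fold change of Bahd1-KO against Bahd1-WT (vertical axis, error bars SE) against GC content of the transcripts in percent (horizontal axis) for the 48 release genes, by edgeR with TMM scaling (left) and with the GC and length offset (right). On the left the points climb with GC content, from a median of -0.30 in the GC-poorest 16 genes to 0.68 in the GC-richest 16. On the right the slope is turned and Stx1a stays above 0.

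Ratios between relatives within one library do not depend on the scaling factor of that library. In 13 pairs, each made of the 2 most abundant members of a family, the GC-richer gene was put first. The log2 ratio was then higher in Bahd1-KO in 11, and in 6 of them without overlap. Since the fold changes followed GC content, this order favours a higher ratio. The share over gene pairs at large was not measured. The Rab3a to Rab3c log2 ratio was -1.29, -1.75 and -1.53 in Bahd1-WT and -0.76, 0.78 and -0.54 in Bahd1-KO. The Bsn to Pclo ratio was -0.98, -1.22 and -1.03 in Bahd1-WT and -0.42, 0.61 and -0.23 in Bahd1-KO. In both pairs the GC-poorer gene had the higher CPM in every Bahd1-WT library, and the GC-richer gene had it in Bahd1-KO replicate 2 alone. These CPM are not scaled to length. Per kilobase of exon the mean of Rab3a was above that of Rab3c in Bahd1-WT, at 100.9 against 53.43 CPM. Bsn and Pclo were at 8.976 and 13.45 CPM per kilobase in Bahd1-WT and at 13.91 and 9.786 in Bahd1-KO.

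The other 4 separated pairs were Napa to Napb, with means of -2.78 ± 0.21 SD in Bahd1-WT and -1.80 ± 0.73 SD in Bahd1-KO, Cplx1 to Cplx2, Unc13a to Unc13c and Syt11 to Syt1. Each of the 6 had p = 0.10 in a two-sided exact permutation test of the 3 against 3 mice, the smallest this design allows, and an adjusted p of 0.22 over the 13 pairs in the same exact test. Vamp2 to Vamp1 and Syn1 to Syn2 had lower ratios in Bahd1-KO, with overlap. The ratios still carry each library's GC trend, and with the GC and length offset 4 of the 13 were higher in Bahd1-KO. Of the 6 separated pairs 4 turned, with log2 differences of -0.075 for Rab3a to Rab3c, -0.20 for Napa to Napb, -0.22 for Unc13a to Unc13c and -0.36 for Bsn to Pclo, while Cplx1 to Cplx2 and Syt11 to Syt1 stayed higher at 0.070 and 0.16.

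**Figure D4:**
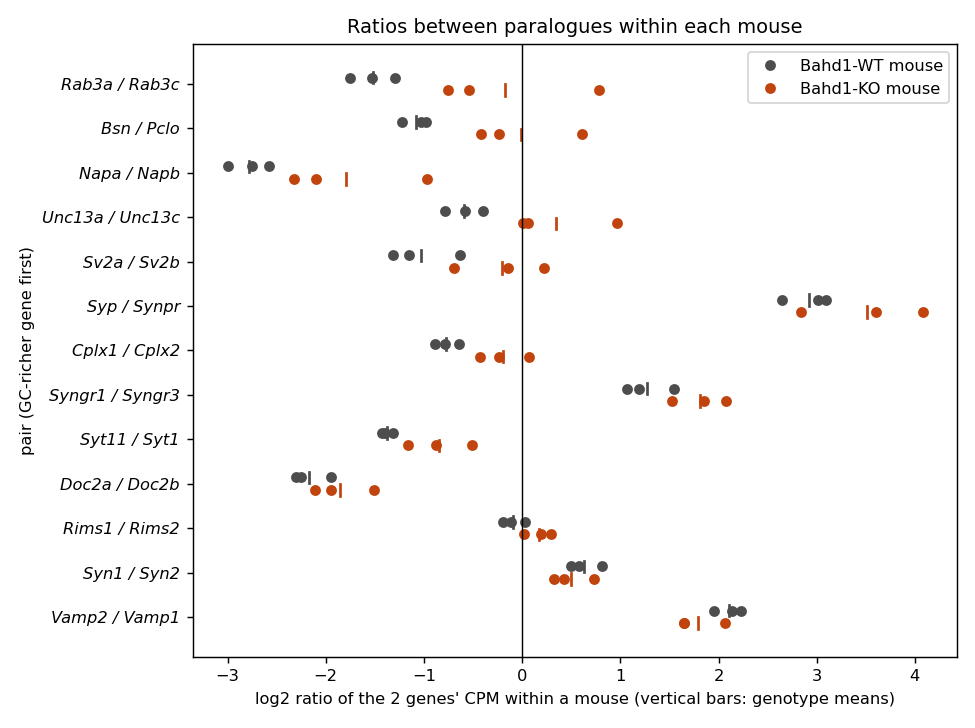
Log2 ratio of CPM between the 2 members of each of 13 pairs of related genes (horizontal axis) in single Bahd1-WT and Bahd1-KO mice, with the GC-richer gene as numerator and short bars at genotype means. In 11 of the 13 pairs the Bahd1-KO mean lies to the right, and in 6 of these no Bahd1-KO mouse overlaps a Bahd1-WT mouse. These are ratios without the GC and length offset, which turned 4 of the 6.

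The adaptors Napa and Napb are shown in the same way as the Rab3 pair, since they are close relatives that lay on opposite sides of 0. Their proteins share 83.7% of residues over 295 positions. The stretches, each in the last of 11 exons, are chr7:16116464-16116553 for Napa (plus strand) and chr2:148697417-148697506 for Napb (minus strand), both GRCm38 and coding, with capitals at the bases that differ.
Napa: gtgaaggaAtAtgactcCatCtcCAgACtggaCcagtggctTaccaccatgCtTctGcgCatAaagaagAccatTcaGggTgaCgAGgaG
Napb: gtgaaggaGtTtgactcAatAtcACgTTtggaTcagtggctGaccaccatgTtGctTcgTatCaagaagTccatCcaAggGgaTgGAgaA
Here 27 of the 30 residues are identical and 23 of 90 bases differ, 17 of them at the third codon position, where Napa has 73.3% GC and Napb 60.0%. Napa has G or C against A or T in Napb at 12 of the 23, and the reverse holds at 8. The complexin pair did not share this pattern: Cplx1 and Cplx2 differ at 12 of 90 bases of their best stretch, with G or C in Cplx1 against A or T in Cplx2 at 2 and the reverse at 7, although Cplx1 had the higher GC content over whole transcripts (56.7% against 53.7%).

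RefSeq promoter windows (GRCm38.p6, from 250 bases before to 50 after a start) were at hand for 34 of the 48 genes, 44 windows in all, with a median GC content of 62.5% against 52.7% over all 32851 windows. The GC box GGGCGG, searched on both strands, lay in 30 of the 44 (68.2%) and in 35.7% of all windows. It was present in 10 of 14 windows of genes that were higher without overlap and in 4 of 5 of those that were lower, so these sets were not told apart by it. The cAMP response element TGACGTCA was found in Napa and Syn1, 4.55% of the members' windows against 1.79% of all. Of the 2 parts of the element bound by the neuronal repressor REST, TTCAGCACC occurred in Syn1 and Unc13a (4.55% of the members' windows, 0.371% of all) and GCTGTCC in Syt6 and Unc13a (4 windows, 9.09%, against 6.56% of all).

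Other genes of the pathway also lay on both sides of 0. Of 41 further genes of release (liprins, ELKS, CAPS proteins and others), 10 were higher and 5 lower at an unadjusted p under 0.05 in edgeR, with a median of -0.07, where 19.9% and 12% of all genes were. Of 8 vesicular transmitter transporters 3 were higher and 0 lower, with a median of 0.18, and of 23 genes of vesicle endocytosis 8 were higher and 2 lower, with a median of 0.22. None of the 3 lists held a called gene in edgeR, and DESeq2 with the prior gave 9, 2 and 7 of their genes at an adjusted p under 0.05, where it gave 17.1% of all genes.

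The transporters that define the transmitter of a neuron lay on both sides of 0. Slc17a7 (VGLUT1), used by cortical excitatory neurons, had a log2 fold change of 0.64 ± 0.23, and -0.31 with the offset. Slc17a6 (VGLUT2), used by subcortical excitatory neurons, was at -0.36 ± 0.19, and -0.045 with the offset. Slc32a1 (VGAT), which loads GABA and glycine, measured 22.0, 13.1 and 16.7 CPM in Bahd1-WT and 28.1, 119 and 42.5 CPM in Bahd1-KO (log2 1.87 ± 0.49), and 0.14 with the offset.

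Slc18a3 (VAChT), the vesicular acetylcholine transporter of a small class of neurons, had the largest difference over the 3 lists, at 30, 30 and 42 reads in the wild-type libraries against 50, 441 and 116 in the knockouts (log2 2.51 ± 0.51, and 0.82 with the offset). The next were Lin7b, Slc32a1, the endophilin Sh3gl1 and the clathrin adaptor subunit Ap2a1, at 2.12, 1.87, 1.67 and 1.56. All 5 were highest in Bahd1-KO replicate 2, and all were richer in GC than any of the middle 16 members.

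Markers of other cell types and of brain regions moved beside these genes in part. The summed level of 6 astrocyte markers was 5470 to 5960 CPM in Bahd1-WT and 3461 to 5153 CPM in Bahd1-KO, and that of 6 oligodendrocyte markers 5060 to 5853 CPM and 5303 to 8245 CPM. Bahd1-KO replicate 2 was the lowest for astrocyte and the highest for oligodendrocyte markers. Microglial markers summed to 294 to 333 CPM and 224 to 308 CPM, and endothelial markers to 204 to 218 CPM and 204 to 231 CPM. None of these markers was at 0, the lowest value being 1.26 CPM for the endothelial Cldn5. Among 5 lists of regional markers, cerebellar ones summed to 1554 to 1868 CPM in Bahd1-WT and 1334 to 1556 CPM in Bahd1-KO, thalamic ones to 651 to 724 CPM and 588 to 647 CPM, striatal ones to 401 to 451 CPM and 395 to 586 CPM, those of cortex and hippocampus to 180 to 299 CPM and 227 to 256 CPM, and those of brainstem and spinal type neurons to 73.5 to 126 CPM and 88.9 to 150 CPM. A list's sum follows its most abundant genes and did not always match its median log2 fold change. The medians were -0.30 for astrocyte, 0.31 for oligodendrocyte, 0.08 for microglial and 0.13 for endothelial markers, with 2, 3, 3 and 3 of 6 higher. For cerebellum, striatum, cortex and hippocampus, thalamus and brainstem they were -0.19, 0.49, 0.25, 0.15 and 0.36, with 2, 4, 3, 4 and 5 of 6 higher. The part of cell and region composition in the members' differences was not tested.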

How the data were processed

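Per the labels and the study's methods, polyadenylated RNA of one hemisphere from each mouse was made into libraries. The authors trimmed reads with cutadapt 1.11, aligned them to GRCm38 with STAR 2.5.0a (Tophat2 is also named) and counted them on exons with featureCounts 1.4.6-p3. The sources describe both a single-end and a paired-end run. The deposited values are raw counts of 1 column per mouse, with 0 columns from elsewhere.

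The 48 genes, their role groups, the 3 pathway lists and the motifs were chosen with earlier results of these data known. All members are named, with the 5 largest differences over the pathway lists and with Slc17a7, Slc17a6 and Slc32a1. Other genes that this rule names are not reported here.

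The 23975 genes whose counts summed to 10 or more were tested in R 4.3.3 with edgeR 4.0.16, TMM, a quasi-likelihood fit with genotype as factor, and Benjamini-Hochberg adjustment over all genes. SE come from this fit. Lengths, positions and GC content are from GENCODE M21 (GRCm38), found for 23940 genes. Length is that of all annotated exons of a gene merged, and GC content is pooled over its annotated transcripts. The offset was a natural spline on GC content (5 degrees of freedom) and log length (3), fitted in each library. DESeq2 1.42.0 was an alternative, with other scalings and filters, the replicate block and each library left out. The scripts were tested on simulated counts that held no GC or length trend between libraries, so the removal of such a trend by the offset was not tested.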

Additional observations from a re-analysis of the deposited data

How the results depend on the processing

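The count of called members was 0 in edgeR with DESeq2 size factors, upper-quartile factors, the 1 CPM filter, the replicate block and the offset, and also in the edgeR offset with the replicate block and the DESeq2 offset fit. It was 3 with total counts, 3 with no filter beyond 1 count, 2 in DESeq2 with the normal prior and 3 without the prior. Over all genes edgeR called 2 with TMM, 2007 with total counts and 2770 without the filter, while DESeq2 called 2522 with the prior and 2761 without it. Over all genes the replicate block gave 7, the offset 4, the offset with the block 12 and the DESeq2 offset fit 126 calls, and leaving out 1 library gave 0 to 3988, the highest without Bahd1-KO replicate 1. Leaving out 1 library gave 0 to 8 called members, and 10 to 28 members at an unadjusted p under 0.05. The counts at an unadjusted p were 10 without Bahd1-WT replicate 2, 11 without Bahd1-WT replicate 3 and 28 without Bahd1-KO replicate 1, where 18.3%, 24.3% and 43.2% of all genes passed. The cause of these shifts was not tested.

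With the replicate block, 0 members were called, 12 had an unadjusted p under 0.05, as did 21.8% of all genes, and the median was 0.25. The deviations of same-numbered mice from their genotype means correlated at -0.61 to -0.14 (mean -0.44), so the numbers did not pair the mice.

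The offset turned the directions that follow, each with values for edgeR, for edgeR with the replicate block and for DESeq2 with the prior in that order. The median over the 48 genes was -0.082, -0.080 and -0.076. That of calcium sensors and other C2 domain proteins was -0.13, -0.13 and -0.12. That of synapsins was -0.14, -0.14 and -0.13. That of vesicle membrane proteins was -0.087, -0.095 and -0.083. That of SNARE regulators was -0.040, -0.040 and -0.037. That of other release machinery was 0.046, 0.045 and 0.043. That of vesicular transporters was -0.017, -0.023 and -0.017. Single genes follow in the same order. Syt1 measured 0.031, 0.035 and 0.030. Syt3 was at -0.11, -0.11 and -0.11. Syt4 came to 0.13, 0.13 and 0.13. Syt5 had -0.75, -0.78 and -0.68. Syt7 stood at -0.71, -0.75 and -0.63. Syt12 measured -0.13, -0.13 and -0.12. Syt17 was at -0.24, -0.25 and -0.22. Doc2a came to -0.67, -0.69 and -0.58. Doc2b had -0.23, -0.23 and -0.22. Syn2 stood at -0.14, -0.14 and -0.13. Synpr measured 0.23, 0.21 and 0.20. Syngr1 was at -0.087, -0.096 and -0.083. Syngr3 came to -0.51, -0.51 and -0.47. Sv2a had -0.10, -0.11 and -0.098. Sv2c stood at 0.038, 0.0065 and 0.034. Snap25 measured 0.37, 0.37 and 0.35. Napa was at -0.090, -0.091 and -0.087. Napb came to 0.11, 0.11 and 0.10. Cplx1 had -0.16, -0.16 and -0.15. Cplx2 stood at -0.23, -0.23 and -0.22. Stxbp5 measured 0.078, 0.078 and 0.075. Rab3c was at 0.17, 0.17 and 0.16. Rims1 came to 0.025, 0.023 and 0.024. Unc13a had -0.30, -0.30 and -0.28. Unc13b stood at 0.11, 0.12 and 0.099. Bsn measured -0.54, -0.56 and -0.49. Rims4 was turned in edgeR with the offset and the block, to -0.0026. The cause was not tested.

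Small values changed sign with the scaling. Vamp2 was 0.00022 with DESeq2 size factors, 0.00021 and 0.00022 in DESeq2 with and without the prior, and 0.057 with total counts. Sv2c was 0.0075 and the median of the other release machinery 0.0089 with total counts. Syn2 and the synapsin median were -0.13 with upper-quartile factors. When each library was left out in turn, Vamp2 ranged from -0.039 to 0.0058, Sv2c from -0.37 to 0.10, Syn2 and the synapsin median from -0.044 to 0.096 and Unc13b from -0.20 to 0.070. The active zone median ranged from -0.18 to 0.070, the transporter median from -0.020 to 0.27 and the median of the other release machinery from -0.14 to 0.0028. No other member or list median turned direction when a library was left out. The lowest count of a member in any library was 168, and whether depth had a part in these shifts was not tested.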
